A study of Mus musculus with 24 samples.

Results

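Long noncoding RNAs were followed in the M. gastrocnemius, the large calf muscle, of mice exposed for 6 h to reduced oxygen. The transcripts were Neat1, Malat1, Meg3, Rian, Mirg, H19, Gas5 and Snhg1. Their probes were chosen by name: every non-control probe of the array whose gene name was 1 of these 8 symbols was taken, which gave 18 of 55681 probes and 7 of the 8 genes, out of 34797 distinct gene names. No probe carried the name Rian. The 8 genes were selected on these same arrays with their Hypox against Norm differences in view, so those differences are given as a description and not as a test. Of the 18 probes, 10 passed the filter on signal, which asked for a mean sample signal above 2 times the local background and at most 4 of 24 arrays without a value. These 10 belonged to Neat1, Malat1, Meg3, H19 and Gas5.

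The Norm group was kept at 20.9% O2 and the Hypox group at 12% O2, with 12 mice and 12 arrays each. Both groups consisted of male C57BL/6JOlaHsd mice that arrived at 10 weeks of age, received a low-fat diet (10% of energy) for 3 weeks and then a high-fat diet (40% of energy) for 6 weeks, and were fasted during the exposure. All mice were thus diet-fed males of 1 strain, which limits them as a model of lean animals. Each array compared the RNA of 1 mouse, labelled with Cy5, with a Cy3-labelled pool of all samples. Values below are log2 ratios of sample to pool after normalisation of each array, and a difference of 1 is a doubling. A value of 0 need not be the level of the pool for a given probe. For 1 H19 probe, for example, both group means lay below 0, at -0.695 for Norm and -0.652 for Hypox.

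Neat1 and Malat1 are neighbouring genes whose transcripts stay in the nucleus. Neat1 is the scaffold on which paraspeckles assemble, whereas Malat1 gathers in nuclear speckles, the stores of splicing factors. Meg3, Rian and Mirg are made from the maternal copy of 1 imprinted domain, and H19 is the maternally expressed partner of Igf2 and is abundant in developing and regenerating muscle. Gas5 and Snhg1 are host genes of small nucleolar RNAs: the small RNAs are cut from the introns, and the spliced remainder is removed by nonsense-mediated decay.

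The probes on which the results turned are shown first, as 60-base sequences read 5′ to 3′ in the sense of the transcript. The 3 Neat1 probes are shown because they overlap. Capitals mark the bases that the neighbours share with the Neat1 probe, 30 on each side, so these probes are not separate measurements of distant parts of the transcript.
Neat1, member probe: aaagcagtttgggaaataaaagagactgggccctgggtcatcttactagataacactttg
Neat1, neighbour towards the 5′ end: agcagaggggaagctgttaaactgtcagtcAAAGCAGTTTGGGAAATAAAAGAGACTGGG
Neat1, neighbour towards the 3′ end: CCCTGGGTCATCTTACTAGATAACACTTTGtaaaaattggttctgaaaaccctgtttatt

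The Malat1 probes are shown because they read separate stretches of 1 transcript and gave different values. The first lay at the 3′ end and was the only probe named Malat1. The array carried its 60 bases a second time under the older name NEAT2. The other 3 came from the body of the transcript, where the array named its models by position only.
Malat1, member probe at the 3′ end: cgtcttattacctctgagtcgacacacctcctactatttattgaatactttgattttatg
Malat1, body probe nearest the 5′ end: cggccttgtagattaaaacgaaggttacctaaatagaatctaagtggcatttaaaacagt
Malat1, brightest body probe: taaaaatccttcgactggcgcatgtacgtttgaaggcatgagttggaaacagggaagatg
Malat1, body probe in the middle: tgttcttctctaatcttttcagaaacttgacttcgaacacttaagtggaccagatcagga

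For Gas5, H19 and Meg3 the brightest probe is shown, since it stands for its gene in the comparisons between genes. The Gas5 probe had only 23.3% of G and C, against a median of 43.3% over all probes past the filter.
Gas5: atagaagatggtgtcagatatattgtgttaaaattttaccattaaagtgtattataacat
H19: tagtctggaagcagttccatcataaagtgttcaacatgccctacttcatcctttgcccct
Meg3: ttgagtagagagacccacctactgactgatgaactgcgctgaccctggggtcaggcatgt

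Arrays were hybridised on 6 slides that held 4 arrays each, balanced between the groups. The mean Cy5 signal was 58.3 to 933 for Norm arrays and 63.5 to 1010 for Hypox arrays, and it differed mainly between slides, which are numbered here from the dimmest (1) to the brightest (6). All 8 skeletal muscle fibre markers were at least 149 times above background, as the labelled tissue would have them. Of the other cell types, 4 of 5 adipocyte and 4 of 5 peripheral nerve markers were above 2 times background, and all 8 of these had lower means in Hypox. The summed adipocyte signal above background was 234 to 21500 for Norm and 349 to 14700 for Hypox, and the nerve sum 35.6 to 1690 for Norm and 33.2 to 867 for Hypox. Plin1 and Pmp2 were below 2 times background. In 6 further marker lists, Cdh5 (0.38, SE 0.13), Dcn (-0.37, SE 0.17) and Sftpc (0.81, SE 0.32) differed before adjustment (limma p under 0.05). None passed after adjustment. Cdh5 is endothelial, and the other endothelial genes tested, Kdr and Tie1, differed by -0.15 and -0.004. Dcn is of connective tissue, where Col1a1, Col3a1 and Lum were higher in Hypox (0.11, 0.22 and 0.09) and Pdgfra differed by -0.0008. Of the lung genes, only Sftpc was above 2 times background. The part of these cell types in the results below was not tested, and in whole muscle fewer cells of a type and less RNA per cell cannot be told apart. Over all 14503 probes past the filter, 0.69% were lower in Hypox at a limma adjusted p under 0.05, and 13.8% differed in either direction before adjustment. The median difference over these probes was 0.02.

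Neat1 was lower in Hypox. Its probe (NR_003513, mm9 chr19:5842564-5842623, reverse strand) lay in the exon of the short form and was read at 30.0 times background. It was well above background on all 24 arrays. In Norm, its log2 ratio ran from -0.56 over a median of -0.06 to 0.55. In Hypox, it ran from -1.07 over -0.54 to -0.23. All 12 Hypox arrays were below the Norm median and 3 were below every Norm array, whereas 7 Norm arrays were above every Hypox array, so the groups overlapped in part. The Norm mean was -0.06 ± 0.33 and the Hypox mean -0.60 ± 0.22 (SD, n = 12 for both).

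The Neat1 difference was thus -0.54 (SE 0.11), which corresponds to a level 1.46-fold higher in Norm. It was the only one of the 10 member probes past the filter with an adjusted p under 0.05. Since the genes were chosen on this contrast, nothing is read from that count. The call was lost under 4 of 13 alternatives: median centring, the deposited values with either test, and without Norm 3 and Norm 7. With median centring and with the deposited values, hardly any probe of the array passed after adjustment. Those losses are therefore not particular to Neat1. Within the slides the difference was negative in 6 of 6 and ran from -0.83 on slide 4 to -0.16 on slide 6, the brightest. Leaving out any 1 array kept it between -0.59 and -0.49. Norm 3 had the highest Neat1 ratio, 0.55, and Hypox 2 the lowest, -1.07.

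**Figure D1:**
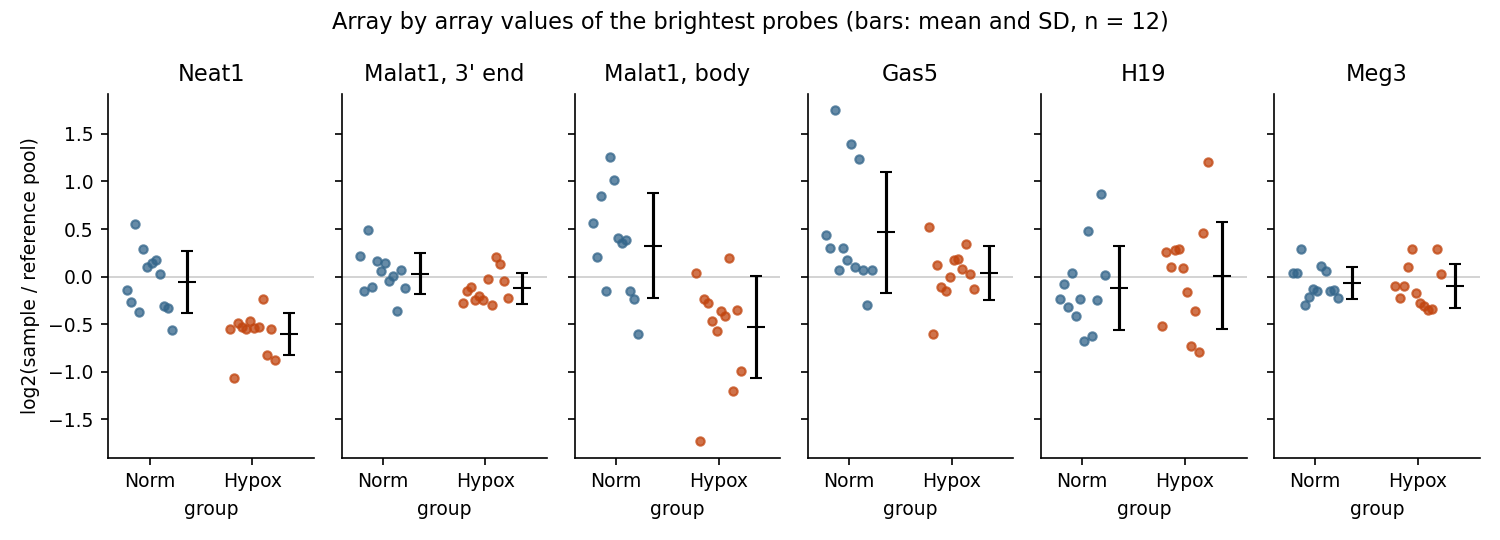
Log2 ratio of sample to reference pool on each array (points) for 6 probes, with the mean and SD of each group of 12 beside them. All Neat1 values in Hypox lie at or below -0.23, and the Gas5 panel shows 3 Norm arrays at 1.24 to 1.75, apart from the others.

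The array held 5 further reverse-strand probes within its own model of the short Neat1 form (chr19:5842306-5845476), listed as NEAT1 and taken here by position after the values were seen. Their differences ran from -0.43 to -0.21, with 2 of the 5 past the adjusted threshold, against 0.69% lower over all probes past the filter. Those 2, at -0.43 and -0.40, were the neighbours that share 30 bases each with the member probe. The others, at -0.39, -0.38 and -0.21, did not pass. The probes were read at 11.0 to 36.6 times background. All 6 Neat1 probes lay within the last part of the short form, 2631 to 2883 bases from its 5′ end. Across arrays, with the group means removed, the 6 probes correlated at r = 0.18 to 0.81 (median 0.50 over 15 pairs).

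The long form of Neat1, which paraspeckles require, extends beyond the short one. There, 3 reverse-strand probes 10560 to 10874 bases from the same 5′ end were read at 1.25 to 1.5 times background and did not pass the filter. At most 3 of the 12 arrays of a group were well above background. The response of the long form could therefore not be measured at this signal.

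Malat1 gave different values along its length. The member probe (NR_002847, mm9 chr19:5795713-5795772, reverse strand) at the 3′ end was dim, with a signal of 2.01 times background, and was well above background on 7 Norm and 5 Hypox arrays. Its ratio ran from -0.36 over a median of 0.03 to 0.49 in Norm. In Hypox it ran from -0.29 over -0.18 to 0.20. The groups overlapped over most of their range, and no Hypox array was below every Norm array. The difference was -0.15 (SE 0.08), and it was negative on 4 of 6 slides.

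The second probe with the same 60 bases differed by -0.07 (SE 0.14), and both correlated at r = 0.54 across arrays with the group means removed. This pair shows how closely a signal near background was measured. The scanner's own processed signals gave -0.55 for the member probe and median centring of the arrays gave 0.02, so its size and sign depended on the processing.

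In the body of Malat1 the differences were larger. The array placed 6 reverse-strand probes between 345 and 4356 bases from the 5′ end of its Malat1 model (chr19:5795689-5802671, single exon), again taken by position after the values were seen. All 6 were lower in Hypox, by -0.37 to -1.06. Of the 6, 5 passed the adjusted threshold, against 0.69% lower over all probes past the filter. All 5 lost this call with median centring and with the deposited values, settings under which hardly any probe of the array passed. Some lost it under other settings too. Without Norm 3 and Norm 7, the probes starting at 5798473 and 5802191 lost it, as did the brightest body probe described below. The probe starting at 5798473 also lost it with the scanner's processed signals, and that starting at 5798256 with the replicate number as a block. The 6 body probes were read at 3.28 to 43.2 times background.

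The probe nearest the 5′ end (chr19:5802267-5802326, 26.1 times background) had the lowest value. Its ratio ran from 0.09 over a median of 0.71 to 1.52 in Norm. In Hypox it ran from -1.99 over -0.24 to 0.32, and 10 of 12 Hypox arrays were below every Norm array. The difference of -1.06 (SE 0.20) corresponds to a 2.08-fold higher level in Norm. It was negative on 6 of 6 slides, from -1.76 to -0.64.

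The brightest body probe (chr19:5802130-5802189, 43.2 times background) showed the same direction. It ran from -0.61 over 0.37 to 1.26 in Norm. In Hypox it ran from -1.73 over -0.39 to 0.19, and 3 Hypox arrays were below every Norm array. The difference was -0.86 (SE 0.21), 1.81-fold higher in Norm, and was negative on 6 of 6 slides. Its call after adjustment was lost under 8 of 13 alternatives and in 16 of 24 fits without 1 array. Hypox 2 had the lowest value, -1.73, and without it the difference was -0.75.

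About 4 kb further on, the body probe in the middle (chr19:5798256-5798315, 6.09 times background) differed by -0.84 (SE 0.16). The next one (chr19:5798473-5798532) differed by -0.78 (SE 0.16). The third of this stretch (chr19:5798561-5798620, 3.28 times background) differed by -0.37 (SE 0.17) and was negative on 4 of 6 slides.

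The body and the 3′ end were set against each other on each array. The mean of the 6 body probes minus the mean of the 4 probes past the filter at the 3′ end ran from -0.23 over a median of 0.27 to 0.55 in Norm. In Hypox it ran from -1.15 over -0.42 to -0.05. The body moved from a mean of 0.38 in Norm to -0.39 in Hypox, and the 3′ end from 0.17 to 0.07. The 4 probes at the 3′ end included the member probe, its repeat with the same 60 bases and 1 that shared 21 bases with it. They were thus not independent measurements. The 3′ end was read at 2.01 to 2.48 times background, and the part of this dim signal in the contrast was not tested.

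**Figure D2:**
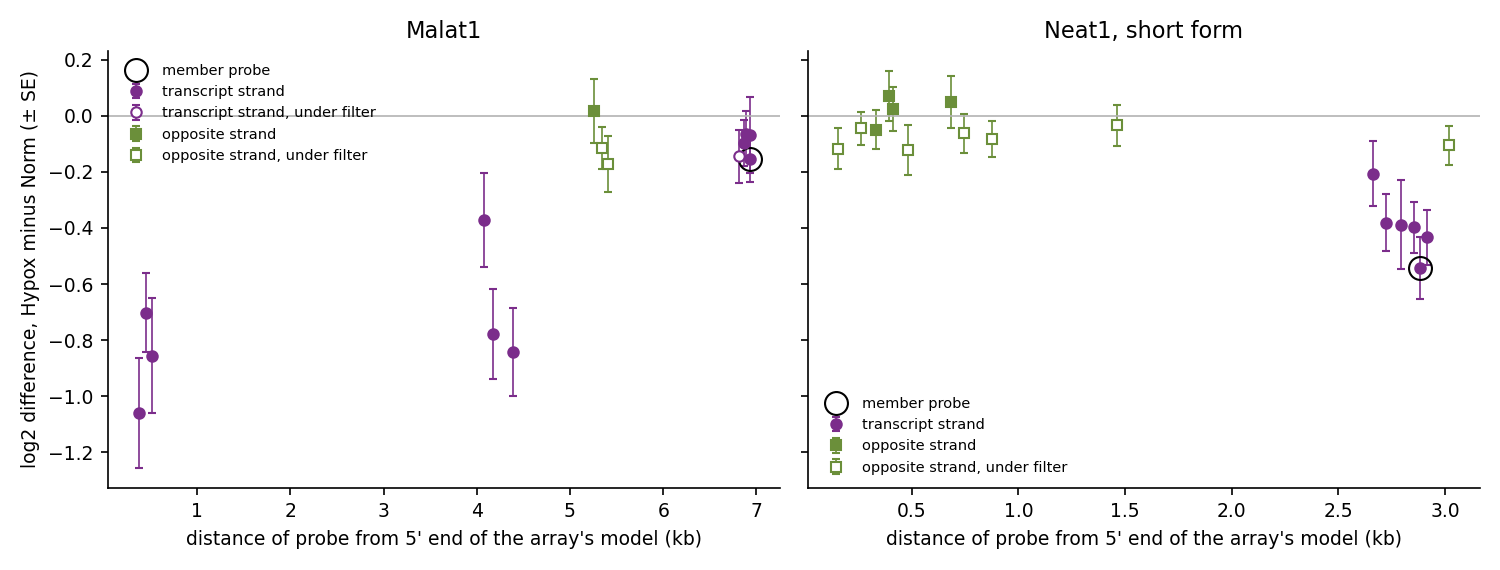
Log2 difference between Hypox and Norm (± SE of the fit) of each probe by its distance in kb from the 5′ end of the array's model, for Malat1 and for the short form of Neat1. Probes on the transcript strand (circles) lie below 0, furthest in the body of Malat1, and probes on the opposite strand (squares) lie between -0.17 and 0.07, with open symbols for probes that did not pass the filter.

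The array also read the opposite strand of both genes, with 3 probes at Malat1 and 11 at Neat1. Of these 14, 5 passed the filter, with signals of 2.28 to 7.6 times background. Their differences ran from -0.05 to 0.07 (SE 0.07 to 0.11). The other 9, under the filter, were all below 0, from -0.17 to -0.03, which spans the values of the dim 3′ end of Malat1 on the transcript strand. None of the 14 reached the differences of the Malat1 body or of Neat1.

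Gas5 was lower in Hypox by its brightest probe (NR_002840, mm9 chr1:162968608-162968667, forward strand), near the 3′ end, at 18.9 times background. In Norm the ratio ran from -0.30 over a median of 0.24 to 1.75, and in Hypox from -0.60 over 0.06 to 0.52. The difference between the means was -0.43 (SE 0.19). It rested on 3 Norm arrays: Norm 3 at 1.75, Norm 7 at 1.39 and Norm 9 at 1.24, which were above every Hypox array. The other Norm arrays lay between -0.30 and 0.44, inside the Hypox range.

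Norm 3 and Norm 7, on different slides, also shared the highest correlation between the residuals of 2 arrays of a group over all probes, r = 0.64. Without these arrays the Gas5 difference was -0.21, and without Norm 3 alone it was -0.31. The Neat1 difference was -0.46 and that of the brightest Malat1 body probe -0.80 without both. Within slides Gas5 ran from -1.48 on slide 4, which held Norm 3 and Norm 9, to 0.01 on slide 6. The 2 other Gas5 probes were read at 1.38 and 1.39 times background and did not pass the filter.

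H19 was read far above background, and its differences were small against a wide spread between arrays. Its brightest probe (NR_001592, mm9 chr7:149761492-149761551, reverse strand, 88.5 times background) ran from -0.68 over -0.24 to 0.87 in Norm. In Hypox it ran from -0.79 over 0.10 to 1.20. The groups overlapped almost fully, and the difference was 0.13 (SE 0.19). The highest value, 1.20, was that of Hypox 12, without which the difference was 0.02, whereas it was 0.22 without Norm 11. The deposited values gave 0.42, and the alternatives ran from 0.04 to 0.59.

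The other H19 probes past the filter differed by 0.01 to 0.27, so that 6 of 6 were above 0. Over all probes past the filter, 8177 of 14503 were above 0. Of the 6 H19 probes, 1 was past the threshold before adjustment, against 13.8% of all probes in either direction. That probe (chr7:149761957-149762016) had a mean of -0.67 ± 0.27 for Norm and -0.40 ± 0.31 for Hypox (SD, n = 12 for both), and 5 of 6 slides had the same sign. The lowest of the 6 (chr7:149762173-149762232) turned to -0.13 with the scanner's processed signals. The 6 probes lay within less than 1 kb and correlated at r = 0.37 to 0.77 with the group means removed, so they were not independent. A seventh H19 probe further upstream (chr7:149762417-149762476) was not well above background on any array. The differences on slides 3 and 4 were positive for all 6 probes and those on slide 2 negative for all 6, as the plot of within-slide differences shows.

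**Figure D3:**
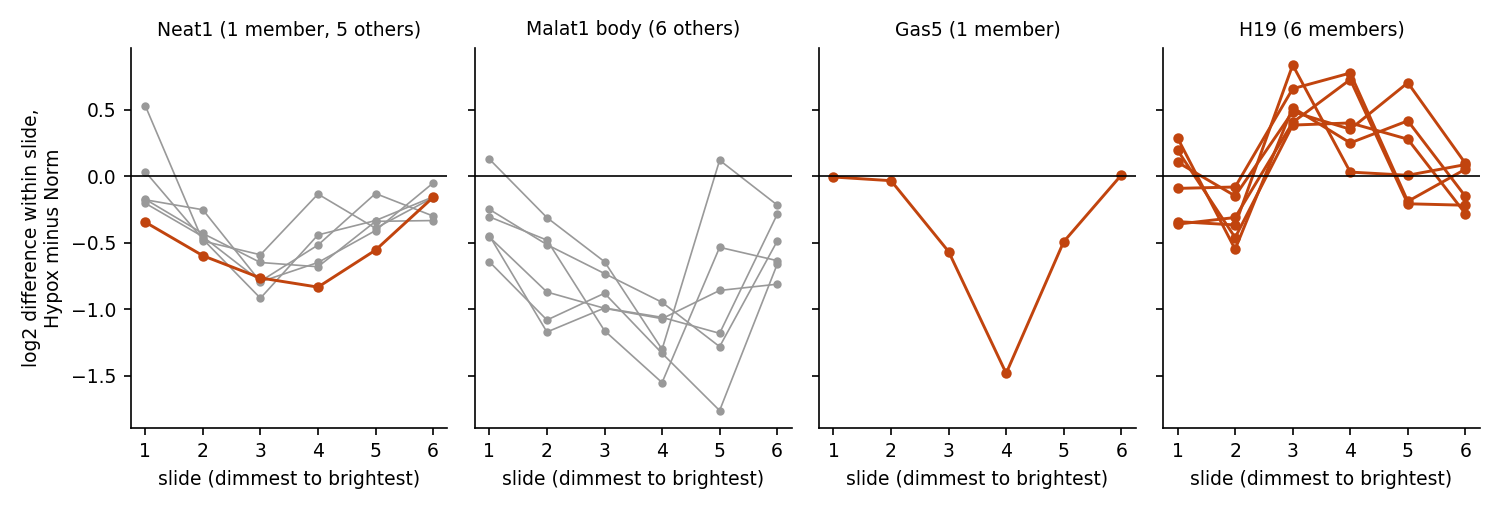
Log2 difference of the mean of 2 Hypox arrays from the mean of 2 Norm arrays on each slide, from the dimmest to the brightest, with member probes in red and other probes of the locus in grey. The Neat1 member probe is below 0 on 6 of 6 slides, Gas5 reaches -1.48 on slide 4, and H19 lies on either side of 0.

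In the imprinted domain of Meg3, Rian and Mirg, the probes named for these genes were close to background, whereas 2 other forward-strand probes were read well above it. The brightest Meg3 probe (NR_027652, mm9 chr12:110809678-110809737, forward strand) was read at 2.43 times background and was well above it on 7 of 12 arrays in both groups. Its ratio ran from -0.29 over -0.14 to 0.29 for Norm and from -0.35 over -0.14 to 0.29 for Hypox. The ranges coincided, and the difference was -0.03 (SE 0.08). The sign turned with the Cy5 channel alone, 0.02, and with median centring, 0.10.

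The other 2 Meg3 probes were read at 1.28 and 1.31 times background. Neither Mirg probe was well above background on any of the 24 arrays. Rian lies between Meg3 and Mirg in RefSeq, and the array held 30 forward-strand probes between the Meg3 and Mirg probes. Of these, 1 passed the filter (EU616813, chr12:110968992-110969051, 28.9 times background). Its ratio ran from -0.52 over -0.07 to 0.51 for Norm and from -0.81 over -0.13 to 1.12 for Hypox, with a difference of -0.05 (SE 0.15). Within the span of the Mirg probes, 1 of 13 other forward-strand probes passed the filter (chr12:110983504-110983563, 5.81 times background). Its ratio ran from 0.28 over 0.60 to 0.91 for Norm and from 0.13 over 0.49 to 0.94 for Hypox, with a difference of -0.06 (SE 0.10). Both probes overlapped widely between the groups. The array does not name them as Rian or Mirg, so they are given by position only.

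Snhg1, the other small nucleolar RNA host among the members, was measured by 1 probe (NR_002896, mm9 chr19:8798913-8798972, forward strand) at 1.9 times background, just under the filter. It was well above background on 7 Norm and 5 Hypox arrays. The ratio ran from -0.30 over 0.01 to 0.59 for Norm and from -0.28 over -0.01 to 0.14 for Hypox. The Hypox range lay wholly inside the Norm range, with a difference of -0.09 (SE 0.07). The deposited values gave -0.28.

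The members differed in how much the arrays of a group varied, a spread that also enters the standard error of the contrast. With 1 array per mouse, it holds differences of slide and labelling as well as those between mice. The residual SD of the brightest H19 probe was 0.50, larger than that of 95% of all probes past the filter. The other H19 probes past the filter stood at percentiles 68.1 to 88.8. Gas5 had a residual SD of 0.49, at percentile 94.4. Neat1 had 0.28, at percentile 65.5. The dim Malat1 and Meg3 probes had 0.19 and 0.20, at percentiles 22.4 and 28.9. The brightest Malat1 body probe stood at percentile 96. The second probe with the sequence of the Malat1 member probe had 0.35, at percentile 82.1, so this measure differed widely even between probes of 1 sequence.

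Pairs of members were then compared across the 24 arrays with the group means removed, so that the Hypox against Norm difference played no part. The brightest probe past the filter stood for each of 5 members, which gave 10 pairs. Each correlation had a two-sided test of 100000 permutations within groups, adjusted over the 10 pairs, and 3 passed. H19 and Gas5 ran in opposite directions, with Pearson's r = -0.59 (permutation p = 0.0009, adjusted p = 0.009) and Spearman's rho = -0.69 (permutation p = 5e-05, adjusted p = 0.0005). Without the 2 arrays farthest from the H19 median r was -0.58, and with slide means removed as well it was -0.46 (permutation p adjusted over the 10 pairs = 0.0625). The scanner's processed signals gave only -0.26 (adjusted permutation p = 0.272). Within Norm and within Hypox r was -0.69 and -0.63.

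Neat1 and Gas5 ran together, with r = 0.61 (permutation p = 0.00398, adjusted p = 0.0199) and rho = 0.54 (permutation p = 0.00981, adjusted p = 0.049). Without the 2 arrays farthest from the Neat1 median r was 0.44 (permutation p = 0.0515), so the relation rested in part on them. With slide means removed it was 0.41 (adjusted permutation p = 0.108), and without Norm 3 and Norm 7 it was also 0.41 (adjusted permutation p = 0.247). Neat1 and the 3′ end of Malat1 had r = 0.54 (permutation p = 0.00972, adjusted p = 0.0324) and rho = 0.45 (permutation p = 0.0374, adjusted p = 0.0935). Without the 2 farthest arrays r was 0.36 (permutation p = 0.116), so this relation too rested on them. The scanner's processed signals gave r = 0.38, and r was 0.73 within Norm but 0.17 within Hypox. With slide means removed r was 0.50 (adjusted permutation p = 0.0596). None of the 3 relations thus stayed past the threshold within slides.

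The other 7 pairs had r between -0.33 and 0.50, and none passed after adjustment. Of these, Meg3 and H19 had r = 0.39, and 0.67 with slide means removed (adjusted permutation p = 0.0086). That pair had r = -0.06 within Norm and 0.65 within Hypox. The scanner's processed signals gave it -0.11 and the Cy5 channel alone 0.155, so its size and sign depended on the processing. With arrays only centred on their medians, all 10 correlations were positive, from 0.64 to 0.95. That setting leaves the dependence of the ratio on brightness in every probe. H19 itself had r = -0.45 with the log2 mean Cy5 signal of the arrays, Neat1 0.24 and Gas5 0.26, with the group means removed. The part of array brightness in these relations was not tested beyond the slide means.

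Neat1 also ran with the brightest Malat1 body probe, a pair set side by side after the values were seen and therefore given without a test. With the group means removed, Pearson's r was 0.87 and Spearman's rho 0.77 over 24 arrays. It was 0.86 within Norm and 0.93 within Hypox, and 0.86 with slide means removed. The Cy5 channel alone gave 0.85 and the scanner's processed signals 0.73, where Neat1 and Gas5 had 0.80. Over all 36 pairs of a body probe with a Neat1 probe the median was 0.49, with a range from 0.14 to 0.87. The 2 transcripts were read on the same arrays and share slide, labelling and brightness.

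**Figure D4:**
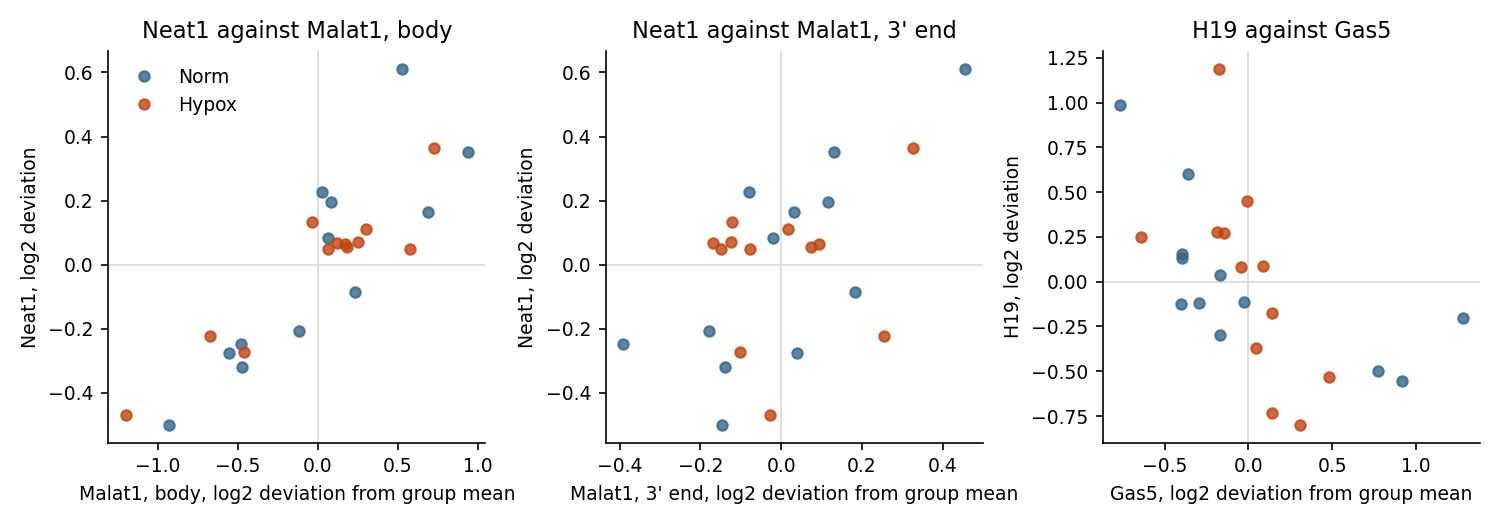
Deviation of each array from its group mean on the log2 scale, for Neat1 against the brightest Malat1 body probe, Neat1 against the Malat1 probe at the 3′ end and H19 against Gas5. Pearson's r over the 24 arrays is 0.87, 0.54 and -0.59.

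The genes whose deviations were most like those of a member were taken among all probes past the filter, with no test. For Neat1 they were Gm6570 (r = 0.85), Phip (0.82), Tulp4 (0.82), Rtraf (0.81), Gm5481 (0.81) and Amz2 (0.80). Gm6570 and Gm5481 are predicted genes, and Phip encodes a chromatin reader. The most opposite were Coa4 (r = -0.82), which serves cytochrome c oxidase assembly, Sh3rf2 (-0.78) and Gm5766 (-0.76). With slide means removed these 9 kept the same signs, for example 0.85 for Gm6570 and -0.78 for Coa4.

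For the 3′ end of Malat1, Tcf12 (r = 0.76), Syncrip (0.74), Cplx2 (0.74), Rpf2 (0.73), Plxnd1 (0.73) and Pcm1 (0.73) were most alike. Tcf12 encodes a partner of the myogenic bHLH factors and Syncrip an RNA-binding protein. Trappc5 (r = -0.75), Snrpb (-0.69) and Prpf40b (-0.69) were most opposite, and the last 2 encode splicing proteins. For Meg3 the values were lower: Mtcl1 (r = 0.67), Pik3cd (0.64), Pacsin1 (0.63), Olfr373 (0.62), Ciart (0.61) and Mgl2 (0.61). Lypla1 (r = -0.79), Srp72 (-0.65) and Rnf149 (-0.64) were most opposite to Meg3. Both the Malat1 and the Meg3 probe were near background, and all 14503 probes past the filter were searched.

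Partner genes of the members were read from 6 lists, with the brightest probe past the filter standing for a gene. Over all 9223 genes, 7.03% were higher and 4.92% lower in Hypox at an unadjusted limma p under 0.05, 0.575% passed after adjustment, and the median difference was 0.03. No gene of the 6 lists passed after adjustment over all probes. The counts below are therefore before adjustment.

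Paraspeckle proteins bind Neat1. Of 29, 23 were tested, of which 2 were higher and 0 lower before adjustment, with a median difference of 0.07. Rbm14, needed for paraspeckle assembly, averaged 0.12 ± 0.12 for Norm and 0.27 ± 0.13 for Hypox (SD, n = 12 for both), a difference of 0.16. Ewsr1, an RNA-binding protein of the FET family, differed by 0.19 (SE 0.07).

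Proteins of nuclear speckles and SR splicing factors are the surroundings of Malat1. Of 30, 24 were tested, of which 2 were higher and 2 lower before adjustment, with a median of 0.05. The SR proteins Srsf2 and Srsf3 differed by 0.22 (SE 0.09) and 0.25 (SE 0.10). Luc7l3, a protein of the U1 complex, differed by -0.42 (SE 0.15). Dyrk1a, a kinase of splicing factors, differed by -0.33 (SE 0.09) and was below the Norm median on 12 of 12 Hypox arrays.

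Of 29 other imprinted genes only 12 passed the filter, with 1 higher and 0 lower and a median of -0.02. Snrpn, which encodes a core splicing protein, differed by 0.28 (SE 0.11). Of 32 other host genes of small nucleolar RNAs, 20 were tested, with 1 higher, 2 lower and a median of 0.01. Eif4a1, the helicase of translation initiation, differed by 0.24 (SE 0.09), Naca, which binds nascent chains at the ribosome, by -0.23 (SE 0.10), and the spliceosomal Cwc22 by -0.26 (SE 0.08). Of 22 factors of nonsense-mediated decay, 19 were tested, with 2 higher, 0 lower and a median of 0.04. Upf3b differed by 0.23 (SE 0.08) and Pnrc2, which links Upf1 to decapping, by 0.44 (SE 0.17), and both were higher on 6 of 6 slides.

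Other long noncoding RNAs were mostly below the filter: of 38 listed, 28 were on the array and 5 were tested. None passed before adjustment, and the median was -0.10. Peg13 differed by 0.01, Mir22hg by -0.09, Norad by -0.10, Airn by -0.23 and Rmrp, the RNA of RNase MRP, by -0.27 (SE 0.14).

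**Figure D5:**
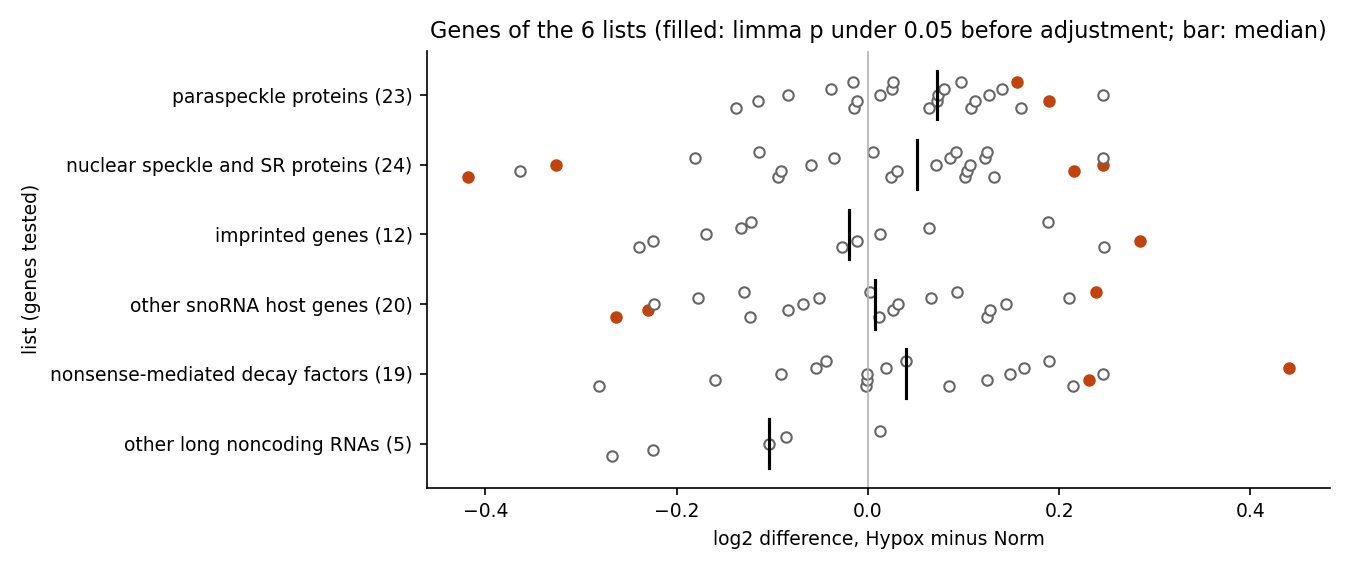
Log2 difference between Hypox and Norm for each tested gene of the 6 lists (points), with a bar at the median and filled points for a limma p under 0.05 before adjustment. The medians lie between -0.10 and 0.07, and no gene passes after adjustment.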

How the data were processed

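M. gastrocnemius RNA of 12 Norm and 12 Hypox mice had been hybridised to 2-colour Agilent arrays, with each mouse in Cy5 and a pool of all samples in Cy3. Where dye labels of Hypox samples named other dyes, the descriptions decided. Spot intensities, as deposited by the authors (mean signal and local background, Agilent Feature Extraction 10.7.3.1, probe positions on mm9), were the starting point. A deposited table of log2 expression values has a scaling and a use of Cy3 that are not given in the sources used here. The median of each deposited log2 column was 6.58.

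Here, 7260 flagged spot readings and all control spots were left out, and 0 spots were saturated. Intensities were background-corrected with normexp (offset 50). Ratios of Cy5 to Cy3, on the log2 scale, were loess-normalised array by array, and repeat spots were averaged per probe (limma 3.58.1, R 4.3.3). The filter kept probes whose mean Cy5 signal exceeded 2 times local background and that lacked a value on at most 4 arrays (14503 of 55681). The contrast of Hypox with Norm was fitted with limma's moderated test over all kept probes, with Benjamini-Hochberg adjustment, and standard errors come from that fit. The number of arrays and their signal over background limit the precision.

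Gene symbols were matched by accession (27235 probes), symbol (3581) or synonym (565) to RefSeq of GRCm38.p6, used for names and gene order only. Probe sequences are those of the scanner files. The members and lists were chosen with earlier results of these data known. Named from each list are the genes past an unadjusted 0.05, at most 4 in each direction, and for Neat1, Malat1 and Meg3 the 6 genes most alike and the 3 most opposite. Alternatives were other background corrections and normalisations, the deposited values, the methods' t-test, other filters, blocks, array weights and leaving out arrays or the dimmest slide. The limma fit was tested on simulated data.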

Additional observations from a re-analysis of the deposited data

How the results depend on the processing

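Over 13 alternatives besides single left-out arrays, the Neat1 difference stayed negative (-0.58 to -0.15), as did those of Gas5 (-0.51 to -0.12) and of the brightest Malat1 body probe (-0.94 to -0.43), and H19 stayed positive (0.04 to 0.59). The lowest Neat1 size, -0.15, came with median centring without loess, which moved the median of all probes to 0.24, so that Neat1 lay -0.39 from that median. The member probe of Malat1 ran from -0.55 with the scanner's processed signals to 0.02 with median centring, and Meg3 from -0.18 to 0.10. The deposited values gave -0.37 for Neat1 and -0.63 for the brightest Malat1 body probe. Leaving out single arrays gave ranges of -0.59 to -0.49 for Neat1, -0.19 to -0.11 for Malat1, -0.07 to -0.0014 for Meg3, 0.02 to 0.22 for H19, -0.50 to -0.31 for Gas5 and -0.94 to -0.75 for the Malat1 body probe. With median centring the correlations of H19 with Gas5, Neat1 and Malat1 turned to 0.82, 0.91 and 0.64. The causes were not tested.

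The count of all probes past an unadjusted 0.05 was 2005, with 1075 higher. It was 59 with median centring (57 higher) and 974 with the deposited values (420 higher and 554 lower). The methods' t-test on the deposited values gave 1042. The Cy5 channel alone gave 1337 (632 higher and 705 lower). Without the filter on dim probes, which tested more probes, it was 4487. The count after adjustment was 135. It was 247 with the scanner's processed signals, 0 with median centring, 68 with the Cy5 channel alone, 1 with the deposited values, 0 with the methods' t-test on them, 85 with the methods' t-test, 45 without the filter, 672 with array weights and 36 without Norm 3 and Norm 7, an alternative chosen after seeing the data. Leaving out single arrays gave 1717 to 2269 before adjustment and 41 (without Hypox 7) to 233 (without Norm 12) after it.

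The lists' counts before adjustment were small and moved with the setting. Over the 13 alternatives they ran from 0 to 7 for paraspeckle proteins (2 above) and from 0 to 5 for speckle proteins (4 above). For imprinted genes the range was 0 to 3 (1 above), and for host genes of small nucleolar RNAs 0 to 4 (3 above). Decay factors had 0 to 3 (2 above) and other long noncoding RNAs 0 to 2 (0 above). Leaving out single arrays gave 2 to 3, 4 to 6, 1 to 2, 2 to 4, 2 to 3 and 0 to 1 for these lists.

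With the replicate number as a block (replicate block), 50 probes passed after adjustment, and the lists of paraspeckle proteins, imprinted genes and other long noncoding RNAs had 1, 2 and 1 genes before adjustment. Same-numbered arrays correlated at -0.20 to 0.41 over 12 pairs, so the numbers were not taken to pair the mice. Dim signal limits what can be said of the probes named Meg3, Mirg and Snhg1, of the long form of Neat1 and of the 3′ end of Malat1.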
